A study of Homo sapiens
Mus musculus with 16 samples.

Results

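The 36 genes described here are human genes that answer to low oxygen or carry out glycolysis, read in tumours that human MDA-MB-231 breast cancer cells formed in mice. They were named by a list of 36 Ensembl gene IDs with their symbols, out of 58051 human gene IDs in the deposited counts. All 36 passed the filter on low counts, which left 18131 human genes for testing. When oxygen is short, the transcription factor subunits HIF1A and EPAS1 escape destruction by oxygen-dependent prolyl hydroxylases, pair with a constant partner and switch on genes for vessel growth, glucose uptake, glycolysis, acid handling and the removal of mitochondria. Many tumours run glycolysis even with oxygen present, and MDA-MB-231, a triple-negative line with mesenchymal traits, is known as a strongly glycolytic one. HIF1A itself is controlled mainly at the protein level, so its mRNA is not a readout of its activity.

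Each Balb/c nude mouse, a host that lacks T cells, carried 1 tumour grown from 2 M MDA-MB-231 cells placed in 50 µl into the mammary fat pad, and all tumours were excised on day 50. Vehicle mice received injections without drug. Nab-paclitaxel mice received Abraxane, the albumin-bound form of the microtubule-stabilising taxane paclitaxel, at 30 mg/kg on days 15, 22 and 29. Phenelzine mice received that inhibitor of monoamine oxidases and of the histone demethylase LSD1 at 40 mg/kg daily from day 15. Combination mice received both drugs on the same schedules. There were 4 mice and 4 libraries in each of the 4 groups. The tumours were thus sampled well after the last taxane dose, and all of them come from 1 cell line.

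Human totals were 11.1 to 34.5 M counts a library. The mouse share of all counts, taken here to follow how much host tissue was read with the tumour, was 13.8, 37.8, 19.0 and 13.6% in vehicle mice 1 to 4 and 9.97, 15.2, 9.25 and 16.1% in phenelzine mice. In nab-paclitaxel mice it was 59.7, 23.4, 21.0 and 41.9%, and in combination mice 71.2, 47.4, 55.9 and 18.6%. Nab-paclitaxel libraries 1 and 4 and combination libraries 1 and 3 stood apart from the other 12 in expression of all human genes: on the first principal component, which held 48.7% of the variance, they scored 72.7 to 125 and every other library 5.37 or less. They also held high mouse shares, from 41.9% to 71.2%, and the called genes and the medians of the comparisons are given with and without them. Levels are CPM, the counts of a gene per M human counts of its library with TMM scaling, and carry no correction for gene length, so they are compared between libraries and not between genes. In bulk tissue, fewer tumour cells that make a transcript and less of it per cell cannot be told apart.

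The 36 genes together took a smaller part of the human counts in tumours of mice given nab-paclitaxel. Their summed share was 2.58, 2.27, 2.20 and 2.039% of human counts in vehicle mice 1 to 4 and 2.25, 2.09, 2.27 and 2.08% with phenelzine. It was 1.18, 1.75, 1.76 and 1.29% with nab-paclitaxel and 1.58, 1.84, 1.22 and 1.94% with the combination, so all 8 tumours given the taxane lay below all 8 not given it. The group means were 2.27% ± 0.226, 2.17% ± 0.101, 1.49% ± 0.305 and 1.64% ± 0.323 (SD, n = 4) for vehicle, phenelzine, nab-paclitaxel and combination. GAPDH and PKM, with levels in 4 digits, carry much of this sum, and the median over the 36 genes gives each gene the same weight. That median, as log2(CPM + 0.5) minus the mean of the vehicle libraries, was -1.27, -0.35, -0.56 and -1.28 with nab-paclitaxel and -0.63, -0.42, -1.23 and -0.27 with the combination. In vehicle libraries it was 0.20, -0.0033, 0.04 and -0.24, and with phenelzine -0.09, -0.24, 0.05 and -0.43. The lowest medians belong to nab-paclitaxel 1 and 4 and combination 3, which are 3 of the 4 libraries that stood apart. The fourth, combination 1, stood at -0.63.

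**Figure D1:**
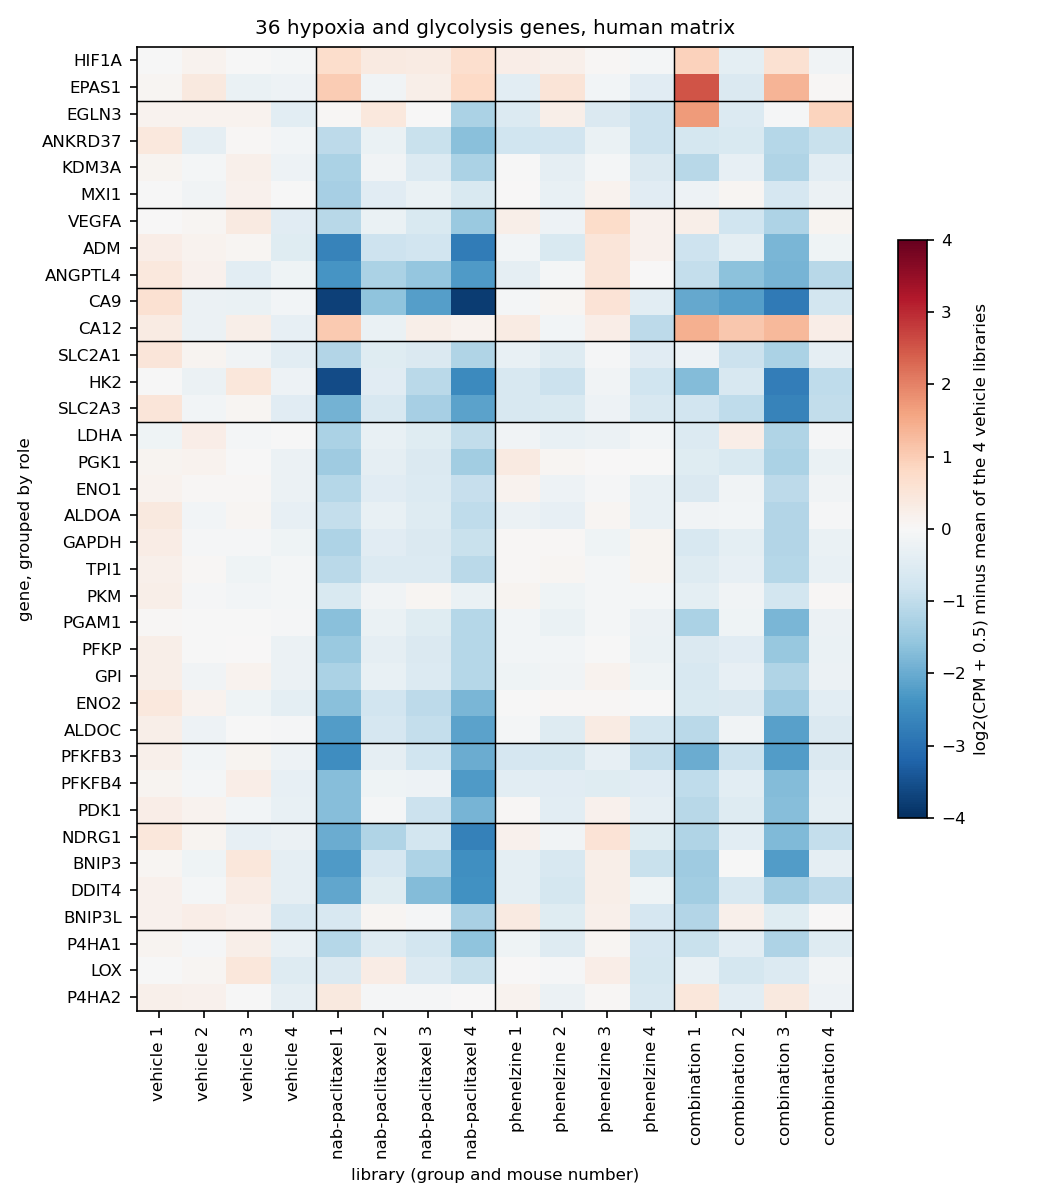
Level of each of the 36 genes (rows, grouped by role) in each of the 16 libraries (columns), as log2(CPM + 0.5) minus the mean of the 4 vehicle libraries, with blue below and red above the vehicle mean. Blue fills most of the nab-paclitaxel and combination columns, deepest in nab-paclitaxel 1 and 4 and combination 3, while HIF1A, EPAS1 and CA12 run red in several of them.

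Counted gene by gene, 31, 23, 28 and 32 of the 36 lay below the lowest vehicle library in nab-paclitaxel mice 1 to 4, where 37.3%, 22.1%, 23.0% and 31.3% of all genes tested did. In combination mice 1 to 4 the counts were 27, 27, 30 and 22, against 38.2%, 25.0%, 37.2% and 23.6% of all genes. With phenelzine they were 10, 18, 6 and 24, against 23.2%, 21.4%, 16.7% and 20.7% of all genes. The excess over the background was thus seen in every library given the taxane, including the 4 that did not stand apart. Among the phenelzine libraries, mice 2 and 4 held more such genes than their backgrounds and mice 1 and 3 held shares near theirs.

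**Figure D2:**
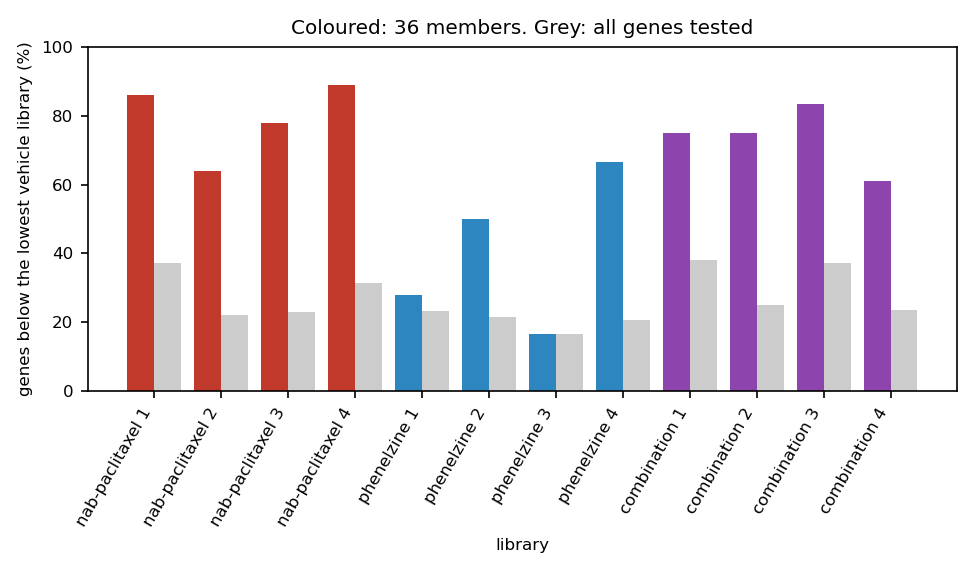
Percentage of genes (vertical axis) that lie below the lowest of the 4 vehicle libraries in each treated library (horizontal axis), for the 36 genes (coloured bars) and for all genes tested (grey bars). The coloured bar exceeds the grey one in all 8 libraries given nab-paclitaxel, from 22 of 36 genes in combination 4 to 32 of 36 in nab-paclitaxel 4.

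The main comparison took the average nab-paclitaxel effect, which sets the 8 tumours given the taxane against the 8 not given it while allowing for phenelzine. Of the 36 genes 18 fell and 1, CA12, rose, where 6.07% of all genes tested fell and 11.2% rose. The median log2 fold change over the 36 was -0.67, with the median of all genes near 0, and 31 of 36 values were negative. At an unadjusted p under 0.05 there were 30 of 36 members and 6302 of 18131 genes. Called genes are those with a Benjamini-Hochberg adjusted p under 0.05 over all 18131 genes in edgeR's quasi-likelihood test, and "rose" and "fell" are used for those alone. Each library came from its own mouse, so a p-value sets a difference against the variation from mouse to mouse. Of the 19 called, 13 stayed called when each of the 16 libraries was left out in turn: CA9, PGK1, NDRG1, ANGPTL4, ENO1, GAPDH, P4HA1, TPI1, DDIT4, PFKP, GPI, ENO2 and SLC2A3. Each of the other 6, which are SLC2A1, ADM, PDK1, CA12, KDM3A and ALDOC, lost the call without at least 1 library, nab-paclitaxel 1 and nab-paclitaxel 4 being such libraries for all 6. The further ones were vehicle 1 and 2, phenelzine 1, 3 and 4 and combination 3 for SLC2A1, and vehicle 1, 2 and 3, phenelzine 3 and 4 and combination 1 and 3 for ADM. For PDK1 and KDM3A they were vehicle 1, 2 and 3, phenelzine 1 and 3 and combination 1 and 3, and for ALDOC vehicle 1 and 3, phenelzine 1 and 3 and combination 1. For CA12 they were all 4 vehicle libraries, phenelzine 2 and 4 and combination 1 and 3. Of the 17 genes not called, VEGFA, BNIP3, HK2, PFKFB3, PGAM1 and ANKRD37 came closest, with adjusted p-values from 0.0513 to 0.0566.

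Without the 4 libraries that stood apart, 4 genes still fell: CA9, ANGPTL4, TPI1 and ENO2, where 0.608% of all genes fell. The median log2 fold change over the 36 was then -0.35, 27 of the 36 values were smaller in size by more than 1.5 times, and each arm given the taxane held only 2 libraries. With the mouse share of each library as a covariate, none of the 36 passed, where 0.188% of all genes did, and the median was -0.31. The mouse share and the taxane move together in these tumours, with group means of 21.1% ± 11.5 for vehicle, 36.5% ± 18.1 for nab-paclitaxel, 12.6% ± 3.54 for phenelzine and 48.3% ± 22.1 for the combination (SD, n = 4). The part of host content in the fall of these genes was not tested beyond these fits.

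**Figure D3:**
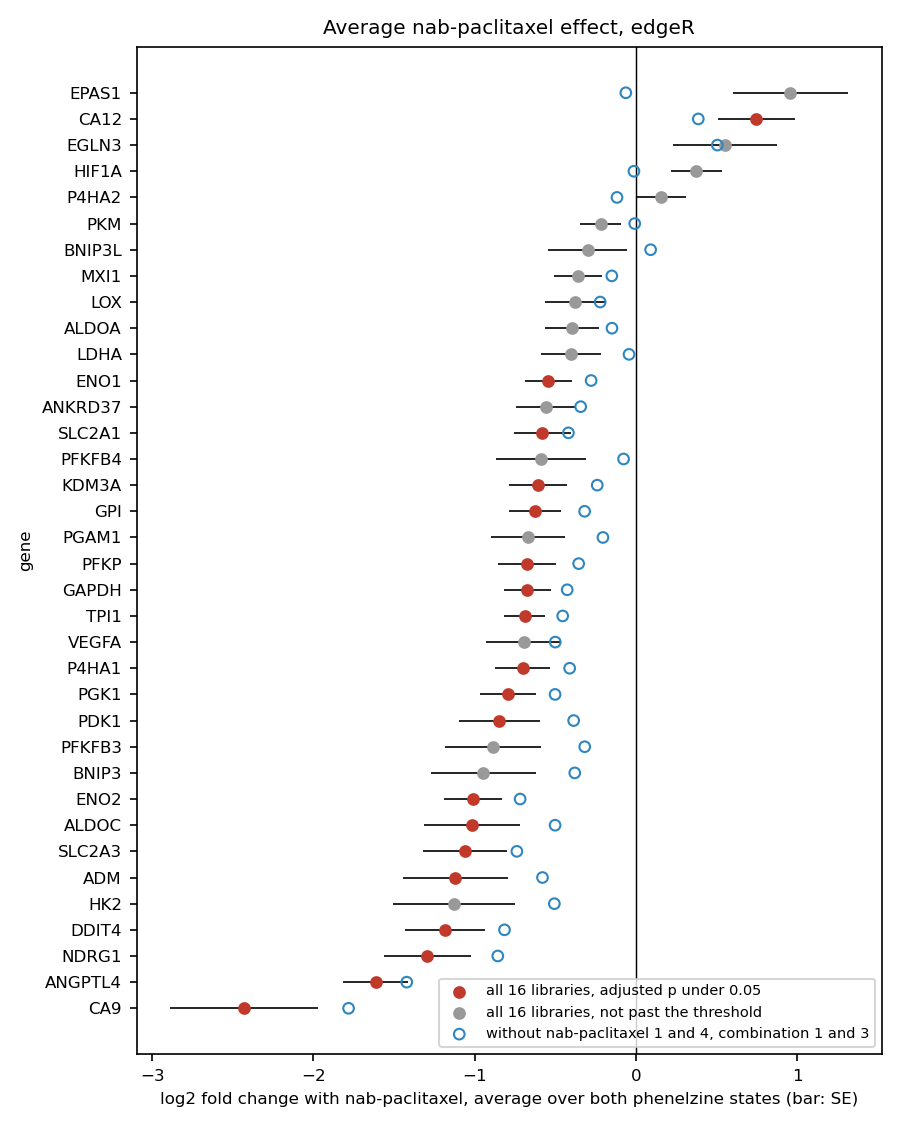
Average nab-paclitaxel effect on each of the 36 genes (vertical axis) as a log2 fold change (horizontal axis), with bars for the SE. Filled points use all 16 libraries, red where the adjusted p is under 0.05, and open circles leave out the 4 libraries that stood apart: most open circles lie nearer 0, CA9 moving from -2.43 to -1.78 and ANGPTL4 from -1.61 to -1.42.

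Among secreted factors ANGPTL4 and ADM fell, and VEGFA did not pass the test. ANGPTL4 (ENSG00000167772, chr19:8364155-8374370, hg38) encodes angiopoietin-like 4, an inhibitor of lipoprotein lipase and a known target of both HIF and PPAR factors. Its level was 132, 109.5, 73.5 and 85.8 CPM in vehicle mice 1 to 4 and 76.4, 92.1, 136 and 98.4 with phenelzine. The nab-paclitaxel tumours had 18.7, 40.1, 33.1 and 20.04 CPM and the combination tumours 50.6, 31.3, 26.7 and 45.4. Every tumour given the taxane lay below every other tumour, with no value between 50.6 and 73.5 CPM. The average effect was a log2 fold change of -1.61 (SE 0.20, adjusted p = 0.00113), which is 3.06-fold lower, and it was -1.42 (adjusted p = 0.00713) without the 4 libraries and -1.41 (adjusted p = 0.0551) with the mouse share in the model.

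ADM encodes adrenomedullin, a vasodilator peptide. It stood at 70.1, 65.4, 62.6 and 41.4 CPM in vehicle tumours and at 54.6, 38.6, 81.9 and 66.8 with phenelzine. With nab-paclitaxel it was 8.80, 32.8, 34.2 and 7.94 CPM, and with the combination 33.0, 44.7, 16.003 and 52.0. Nab-paclitaxel mice 1 and 4 were lowest, and the combination group overlapped both groups not given the taxane. On average the taxane changed it by -1.12 (SE 0.33, adjusted p = 0.0306), and it was -0.58 (adjusted p = 0.162) without the 4 libraries.

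VEGFA (ENSG00000112715, chr6:43770211-43786487) is the main growth factor for new vessels. Its vehicle values were 178, 183, 225 and 128 CPM and its phenelzine values 206, 151, 292 and 196. With nab-paclitaxel it had 81.5, 145, 115 and 62.8 CPM and with the combination 206, 100.4, 73.5 and 188. The nab-paclitaxel and vehicle ranges overlapped, and combination mice 1 and 4 reached vehicle levels while mice 2 and 3 lay below. Its average effect came to -0.70 (SE 0.23, adjusted p = 0.0526), just short of the threshold.

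The 2 membrane carbonic anhydrases, which help tumour cells export acid, had average nab-paclitaxel effects of opposite sign. CA9 (ENSG00000107159, chr9:35673928-35681159), a widely used hypoxia marker, stood at 17.1, 9.23, 8.97 and 10.2 CPM in vehicle tumours and 10.4, 11.7, 16.3 and 8.03 with phenelzine. It was at 0.357, 3.25, 2.00 and 0.317 CPM with nab-paclitaxel and 2.29, 2.01, 1.12 and 6.41 with the combination. The 8 tumours given the taxane again lay below the other 8, nab-paclitaxel mice 1 and 4 far lowest, and the smallest raw count was 6. Its average effect of -2.43 (SE 0.46, adjusted p = 0.00508), or 5.39-fold lower, was the most negative of the 36. It was -1.78 (adjusted p = 0.0233) without the 4 libraries and -1.55 (adjusted p = 0.182) with the mouse share in the model.

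CA12, the second membrane carbonic anhydrase and one that oestrogen receptor signalling also controls in breast tissue, ranged from 9.16 to 24.2 CPM without the taxane and from 15.9 to 52.3 with it. By group it was 15.5 to 24.2 CPM with vehicle, 15.9 to 40.3 with nab-paclitaxel and 23.6 to 52.3 with the combination. Nab-paclitaxel alone against vehicle gave 0.34 (SE 0.33, adjusted p = 0.58), a value that turned negative with the mouse share as covariate or without the 4 libraries. The average effect on CA12 was 0.75 (SE 0.24, adjusted p = 0.0432), the call being lost without any of 10 of the libraries. It was 0.39 (adjusted p = 0.496) without the 4 and 0.22 (adjusted p = 0.897) with the mouse share in the model. As a ratio within each library, log2 of CA9 over CA12 was -1.35 to -0.19 in the 8 tumours without the taxane and -6.82 to -1.88 in the 8 with it, so the groups did not overlap. This ratio is a description with no test.

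**Figure D4:**
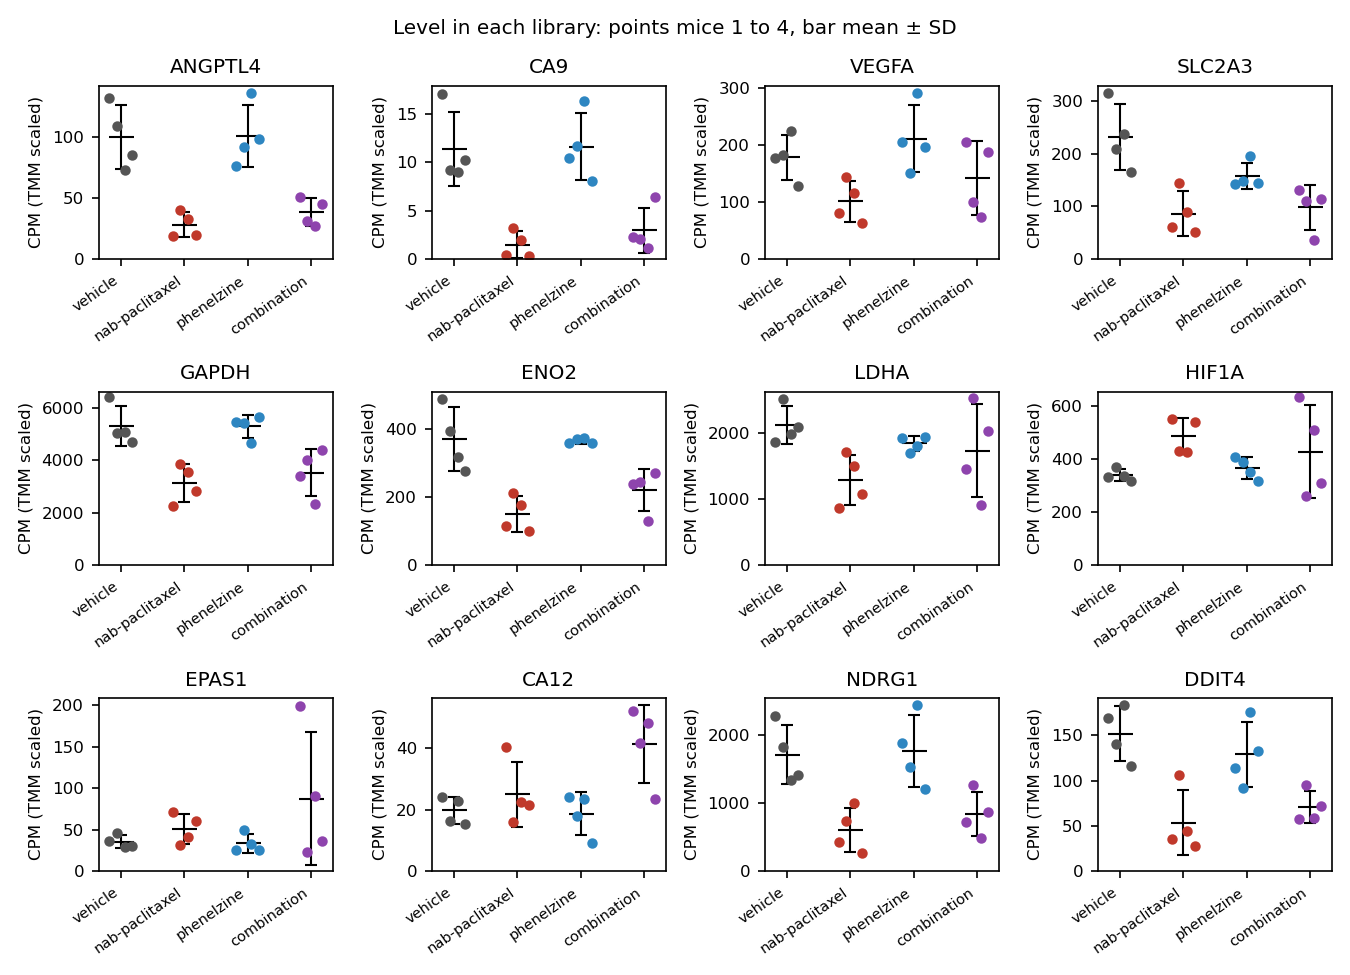
Level in CPM (vertical axes, from 0) of 12 of the genes in each group (horizontal axes), with 1 point a mouse and bars for the mean ± SD of 4. ANGPTL4, CA9, GAPDH and ENO2 show no overlap between the groups with and without nab-paclitaxel, whereas VEGFA, LDHA and EPAS1 in the combination group spread across the vehicle range.

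Glucose enters through the transporters SLC2A1 (GLUT1) and SLC2A3 (GLUT3) and is trapped by hexokinase HK2, and both transporters fell. SLC2A3 was at 315, 209, 238 and 166 CPM in vehicle tumours and 143, 149, 195 and 145 with phenelzine. It was at 60.1, 144, 90.2 and 50.5 CPM with nab-paclitaxel and 132, 111, 35.4 and 114 with the combination. Both groups given the taxane lay below vehicle, and the highest nab-paclitaxel value was level with the lowest phenelzine values. Its average effect was -1.06 (SE 0.26, adjusted p = 0.0151), and -0.74 (adjusted p = 0.0639) without the 4 libraries.

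SLC2A1 had 979, 753, 639 and 520.4 CPM in vehicle tumours and 569, 496, 678 and 515 with phenelzine. The taxane groups had 311, 498, 476 and 303 CPM with nab-paclitaxel alone and 608, 386, 294 and 549 with the combination. Nab-paclitaxel lay below vehicle in all 4 mice, while the combination overlapped it. The taxane effect averaged -0.58 (SE 0.18, adjusted p = 0.0359), and -0.42 (adjusted p = 0.234) without the 4 libraries. HK2 ranged from 251.01 to 403 CPM in vehicle tumours and from 24.3 to 213 with nab-paclitaxel, a ratio exceeded in that group by CA9 alone. Its average effect of -1.13 (SE 0.38, adjusted p = 0.0522) did not pass.

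Of the 12 glycolytic enzymes 8 fell, which are GPI, PFKP, ALDOC, TPI1, GAPDH, PGK1, ENO1 and ENO2. The other 4, ALDOA, PKM, PGAM1 and LDHA, did not pass and had values of -0.39, -0.22, -0.67 and -0.40. GPI, which turns glucose 6-phosphate into fructose 6-phosphate, was at 432, 335, 406 and 313 CPM in vehicle tumours and 328, 337, 409 and 325 with phenelzine. With nab-paclitaxel it was 152, 299.5, 251.7 and 168 CPM and with the combination 238, 295, 159 and 309.7, so the 2 sets of 8 tumours did not overlap but came close, at 309.7 against 313 CPM. Its average effect was -0.62 (SE 0.16, adjusted p = 0.0184), and -0.32 (adjusted p = 0.161) without the 4 libraries.

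PFKP, the platelet form of phosphofructokinase, which commits sugar to glycolysis, had 500.5, 426, 426 and 363 CPM in vehicle tumours and 394, 393, 424 and 354 with phenelzine. It had 152, 332, 287 and 193 CPM with nab-paclitaxel and 282, 310.0, 147 and 351 with the combination. Again no tumour given the taxane reached the lowest of the others, and combination mouse 4 came close to it. Averaged over both phenelzine states, the effect was -0.68 (SE 0.18, adjusted p = 0.0204), and -0.36 (adjusted p = 0.0851) without the 4 libraries. ALDOC, an aldolase best known from brain, was at 29.7, 21.9, 24.8 and 24.5 CPM in vehicle tumours and 23.8, 17.4, 31.7 and 14.9 with phenelzine. It was at 4.88, 15.5, 12.6 and 5.24 CPM with nab-paclitaxel and 11.7, 22.6, 5.15 and 16.7 with the combination. Nab-paclitaxel lay below vehicle throughout, combination mouse 2 was at vehicle level, and the average effect was -1.02 (SE 0.30, adjusted p = 0.0321), and -0.50 (adjusted p = 0.224) without the 4 libraries.

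TPI1 interconverts the pair of triose phosphates that aldolase makes. Its level was 818, 732, 627 and 670.3 CPM in vehicle mice and 727, 750.3, 670.1 and 764 with phenelzine. It was 333, 484, 483 and 333 CPM with nab-paclitaxel and 492, 567, 319.7 and 572 with the combination, all 8 below the other 8. In the average comparison it changed by -0.69 (SE 0.13, adjusted p = 0.00483), or 1.61-fold lower, and -0.45 (adjusted p = 0.0218) without the 4 libraries.

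GAPDH, often used as a reference gene for quantitative PCR, makes the first high-energy phosphate of the pathway. It was at 6409.9, 5055, 5093 and 4687 CPM in vehicle tumours and 5458, 5447, 4649 and 5671 with phenelzine. It was at 2235, 3849, 3567 and 2845 CPM with nab-paclitaxel and 3403, 3999.9, 2339 and 4401 with the combination. The 2 sets of 8 did not overlap, and the average effect was -0.68 (SE 0.15, adjusted p = 0.0084), or 1.60-fold lower. Without the 4 libraries it was -0.43 (adjusted p = 0.0782).

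PGK1 forms the first ATP of glycolysis and is a classical HIF target. It had 1033, 1042, 932 and 805 CPM in vehicle tumours and 1204, 1005, 964 and 933 with phenelzine. With nab-paclitaxel it had 352, 745, 638 and 363 CPM and with the combination 672, 615, 394 and 794, all below the lowest of the 8 other tumours. Its average effect was -0.80 (SE 0.17, adjusted p = 0.00884), and -0.50 (adjusted p = 0.0517) without the 4 libraries.

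ENO1 and ENO2 encode the alpha and gamma enolases, the second of them known as the neuronal form. ENO2 was at 488, 394, 318 and 276 CPM in vehicle tumours and 357, 371, 374 and 357 with phenelzine. It was at 113, 212, 176 and 101 CPM with nab-paclitaxel and 237, 242.6, 130.0 and 269 with the combination, again all 8 below the other 8. The mean taxane effect was -1.01 (SE 0.18, adjusted p = 0.004), or 2.02-fold lower, and -0.72 (adjusted p = 0.0231) without the 4 libraries. ENO1 was at 2761, 2555, 2574 and 2102 CPM in vehicle tumours and 2749, 2145, 2404 and 2041 with phenelzine. It was at 1124, 1820.3, 1702 and 1322 CPM with nab-paclitaxel and 1676, 2231, 1198 and 2267 with the combination. Nab-paclitaxel lay below both groups without the taxane, combination mice 2 and 4 reached their range, and the average effect was -0.54 (SE 0.15, adjusted p = 0.0218), and -0.28 (adjusted p = 0.223) without the 4 libraries.

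LDHA, which turns pyruvate into lactate, was at 1869, 2530.2, 1985 and 2105 CPM in vehicle tumours and 1927, 1710.1, 1807 and 1946 with phenelzine. It was at 870.2, 1714, 1509 and 1077 CPM with nab-paclitaxel and 1452, 2547, 909 and 2031 with the combination. All 4 nab-paclitaxel values lay below vehicle, whereas combination mouse 2 was the highest of all 16 tumours. For this gene the average effect was -0.40 (SE 0.19, adjusted p = 0.141), and -0.04 without the 4 libraries. PKM, the pyruvate kinase that ends the pathway, spanned 3291 to 4351 CPM without the taxane and 2231 to 3895 with it. ALDOA, the main aldolase, spanned 794 to 1308 CPM without the taxane and 448 to 971 with it. PGAM1, a phosphoglycerate mutase, spanned 340.3 to 425 CPM without and 115 to 362 with the taxane, and combination mice 2 and 4 reached the lower range of the tumours not given it.

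Enzymes that set the rate or fate of glycolysis numbered 3 on the list. They are the 2 bifunctional fructose 2,6-bisphosphate enzymes PFKFB3 and PFKFB4 and the pyruvate dehydrogenase kinase PDK1. PDK1 fell, with an average effect of -0.85 (SE 0.25, adjusted p = 0.0341) and -0.39 (adjusted p = 0.292) without the 4 libraries, from 35.8 to 57.5 CPM without the taxane to 12.9 to 45.4 with it. PFKFB3 did not pass at -0.89 (SE 0.30, adjusted p = 0.0519), nor did PFKFB4 at -0.59 (SE 0.28, adjusted p = 0.146). PFKFB3 had 222 to 296 CPM in vehicle tumours, 45.8 to 199.6 with nab-paclitaxel, 133 to 205 with phenelzine and 54.5 to 173 with the combination, so that every treated tumour lay below every vehicle tumour.

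Of the 4 stress and mitophagy genes NDRG1 and DDIT4 fell. NDRG1, a stress-response gene strongly induced by low oxygen, was at 2289.6, 1822, 1337 and 1411 CPM in vehicle tumours and 1887, 1526, 2439 and 1209 with phenelzine. It was at 421, 735, 999 and 259.6 CPM with nab-paclitaxel and 723, 1262, 491 and 864 with the combination. Both taxane groups lay below vehicle, and combination mouse 2 lay just above the lowest phenelzine tumour. Across both phenelzine states the log2 fold change was -1.29 (SE 0.27, adjusted p = 0.00728), or 2.45-fold lower, and -0.86 (adjusted p = 0.0771) without the 4 libraries.

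DDIT4 (REDD1) restrains mTORC1 under stress. It was at 169, 140.5, 183 and 116 CPM in vehicle tumours and 114, 92.2, 176 and 133 with phenelzine. It was at 35.4, 107, 44.5 and 27.5 CPM with nab-paclitaxel and 56.9, 95.2, 58.4 and 72.3 with the combination. Both taxane groups lay below vehicle and overlapped phenelzine, with an average effect of -1.19 (SE 0.25, adjusted p = 0.00758), and -0.82 (adjusted p = 0.12) without the 4 libraries. The mitophagy receptors BNIP3 and BNIP3L did not pass, at -0.95 (SE 0.32, adjusted p = 0.0565) and -0.30 (SE 0.24, adjusted p = 0.394). BNIP3 had 55.6 to 192 CPM with nab-paclitaxel against 236 to 419 with vehicle, and BNIP3L 119 to 309.7 against 188 to 349.8.

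P4HA1, a catalytic subunit of the prolyl hydroxylase that matures collagen, fell as well. It was at 215, 191, 234 and 160.0 CPM in vehicle tumours and 177, 139, 209 and 123 with phenelzine. It was at 88.8, 138, 119 and 65.2 CPM with nab-paclitaxel and 106, 147, 84.7 and 138 with the combination. Both taxane groups lay below vehicle, and the average effect was -0.70 (SE 0.17, adjusted p = 0.0138), and -0.41 (adjusted p = 0.187) without the 4 libraries. The paralogous subunit P4HA2 did not pass at 0.16 (SE 0.15, adjusted p = 0.482), and its value turned negative, to -0.12, without the 4 libraries. LOX, the lysyl oxidase that cross-links collagen, did not pass at -0.38 (SE 0.19, adjusted p = 0.166) and spanned 111 to 248.01 CPM without the taxane and 96.2 to 219 with it.

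KDM3A, a histone H3 lysine 9 demethylase, was the 1 gene of 4 that fell among the feedback and chromatin genes. It was at 214, 186, 227 and 171 CPM in vehicle tumours and 195, 154, 187 and 134 with phenelzine. It was at 82.7, 178, 134 and 81.6 CPM with nab-paclitaxel and 91.0, 159, 85.6 and 147 with the combination. Nab-paclitaxel mouse 2 was within the vehicle range and the other taxane tumours lay below it, and the average effect was -0.61 (SE 0.18, adjusted p = 0.0344), and -0.24 (adjusted p = 0.366) without the 4 libraries. ANKRD37, an ankyrin-repeat protein gene induced by HIF, had -0.56 (SE 0.19, adjusted p = 0.0513), and the MYC antagonist MXI1 had -0.36 (SE 0.15, adjusted p = 0.1). ANKRD37 spanned 12.7 to 31.4 CPM without the taxane and 6.95 to 19.4 with it, and MXI1 44.7 to 69.7 and 24.2 to 64.4. EGLN3, an oxygen-dependent hydroxylase of the HIF subunits that is itself a HIF target, had 0.55 (SE 0.32, adjusted p = 0.231), with 32.2 CPM in combination mouse 1 against 6.98 to 10.6 in vehicle tumours.

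Neither HIF subunit gene passed the test, and both values were positive. HIF1A was at 330.2, 370.4, 334 and 317 CPM in vehicle tumours and 409, 388, 349.8 and 316 with phenelzine. It was at 551, 429, 426 and 539 CPM with nab-paclitaxel and 634, 259, 509.7 and 308 with the combination. Nab-paclitaxel lay above both groups without the taxane, while combination mice 1 and 3 were high and mice 2 and 4 lay below every tumour of the other groups. On average the taxane changed it by 0.37 (SE 0.16, adjusted p = 0.104), and -0.01 without the 4 libraries.

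EPAS1 (HIF-2 alpha) was at 36.7, 45.6, 29.0 and 29.8 CPM in vehicle tumours and 25.8, 49.8, 32.4 and 25.2 with phenelzine. It was at 71.0, 31.4, 40.6 and 60.8 CPM with nab-paclitaxel and 199, 23.3, 90.1 and 36.2 with the combination. Combination mice 1 and 3 and nab-paclitaxel mice 1 and 4 were the 4 highest of all 16 tumours, and these are the libraries that stood apart. Its average effect came to 0.96 (SE 0.36, adjusted p = 0.0748), and -0.06 without those 4.

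Set against vehicle alone, 1 of the 36 genes fell with nab-paclitaxel, where 0.165% of all genes were called. This was ANGPTL4, at -1.84 (SE 0.29, adjusted p = 0.0322), and the call was lost in 8 of 16 fits that left out 1 library: vehicle 1, 2 or 4, nab-paclitaxel 1, 3 or 4, and phenelzine 2 or 4. In those 8 fits 0 to 5 of all genes rose and 0 to 3 fell. The value of ANGPTL4 ran from -2.05 to -1.67 over the 16 fits. The median over the 36 was -0.82 on the log2 scale, 32 of 36 values were negative, and 28 had an unadjusted p under 0.05, as 3679 of 18131 genes did. Without overlap, 22 of the 36 lay below vehicle in all 4 nab-paclitaxel tumours, where 7.47% of all genes did. HIF1A was the 1 gene of the 36 above vehicle in all 4, and the share of all genes above was not counted. Leaving out nab-paclitaxel 2 raised the count of called genes among the 36 to 18, leaving out combination 2 to 6 and leaving out combination 3 to 4. Calls over all genes rose as well. With all 16 libraries 20 genes rose and 10 fell, and without nab-paclitaxel 2 these were 499 and 204 of 18666. They were 390 and 88 of 18779 without combination 2, and 67 and 52 of 18496 without combination 3. When the libraries were scaled by total counts alone, the median of all genes moved by 0.10 and the 36 genes stayed lower than it by a median of 0.83. With that scaling 2 of the 36 were called, where 25 of 18131 genes rose and 13 fell. The median over the 36 was -0.46 without the 4 libraries that stood apart and -0.67 with the mouse share as covariate.

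With the combination, ANGPTL4 was again the 1 gene called, at -1.38 (SE 0.29, adjusted p = 0.0447), where 0.734% of all genes were called, and it kept that call in 4 of 16 fits that left out 1 library (without nab-paclitaxel 1 or 2, or combination 2 or 4). In the fits that lost the call 0 to 41 of all genes rose and 1 to 17 fell, and the value of ANGPTL4 ran from -1.53 to -1.20 over the 16. A second gene was called without nab-paclitaxel 2, combination 2 or combination 4, where 279, 1112 and 438 of all genes rose and 72, 276 and 119 fell. The median over the 36 was -0.65, 31 values were negative and 22 had an unadjusted p under 0.05, as 4058 of 18131 genes did. That median was -0.35 without the 4 libraries that stood apart, and -0.24 with the mouse share as covariate. In the latter fit 1 member had an unadjusted p under 0.05, as 1134 of 18131 genes did. All 4 combination tumours lay below all 4 vehicle tumours for 19 genes, against 5.91% of all genes. This comparison and the one of nab-paclitaxel share the vehicle tumours. Against phenelzine, ANGPTL4 was also the 1 gene called, at -1.39 (SE 0.29, adjusted p = 0.0346), where 2.27% of all genes were called, and it kept that call in 9 of 16 such fits. That call was lost without vehicle 2, combination 1 or 3, or any 1 phenelzine library, where 5 to 85 of all genes rose and 1 to 29 fell. The value of ANGPTL4 ran from -1.54 to -1.20 over the 16 fits. Without nab-paclitaxel 1 or combination 2 there were 2 called genes, where 541 and 1159 of all genes rose and 235 and 328 fell. Without combination 4 there were 3, where 614 of all genes rose and 220 fell. The median over the 36 was -0.48, with 31 values negative, and 9 genes had no overlap below phenelzine, against 5.34% of all genes. The median was -0.20 without the 4 libraries, and 0.02 with 17 values negative with the mouse share as covariate, so the lower level of the list as a whole was not seen in that fit.

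The 8 tumours given the taxane lay below the 8 others for CA9, PGK1, ANGPTL4, GAPDH, TPI1, PFKP, GPI and ENO2, which are 8 of the 36 genes, where 0.772% of all genes did so. Of these, 6 are glycolytic enzymes. No member lay above in the same way, but the share of all genes that did was not counted, so the 2 directions cannot be set against each other.

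No difference between phenelzine alone and vehicle was detectable for any of the 36 genes. None passed against vehicle, where 0% of all genes did, and 1 member had an unadjusted p under 0.05, as 426 of 18131 genes did. DESeq2 and voom with quality weights also called none of the 36, where they called 0.0221% and 0% of all genes. The median over the 36 was -0.13, with 28 of 36 values negative, and -0.28 with 32 negative with the mouse share as covariate. The most negative values were ANKRD37 at -0.70 (SE 0.26, adjusted p = 1), PFKFB3 at -0.65 (SE 0.42, adjusted p = 1), HK2 at -0.61 (SE 0.53, adjusted p = 1) and SLC2A3 at -0.55 (SE 0.36, adjusted p = 1). PFKFB3, PFKFB4 and PGAM1 lay below vehicle in all 4 phenelzine tumours without overlap, where 1.51% of all genes did. PFKFB4 was at 52.5, 51.7, 50.2 and 52.1 CPM with phenelzine against 76.9, 67.4, 85.6 and 56.6 with vehicle, the narrowest spread of the 36 within the phenelzine group.

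Adding phenelzine to nab-paclitaxel called none of the 36, where 0.00552% of all genes were called. An unadjusted p under 0.05 was held by 2 members and by 533 of 18131 genes. The median was 0.22, with 4 values negative. It was 0.13 without the 4 libraries that stood apart, and 0.41 with the mouse share as covariate. In the latter fit 10 members had an unadjusted p under 0.05, as 727 of 18131 genes did. The interaction of the drugs, which asks whether the combination differs from the sum of both effects, called none of the 36 and 0% of all genes. No member had an unadjusted p under 0.05 in the interaction, where 544 of 18131 genes did. Its median was 0.50 with 2 values negative, the largest being EGLN3 at 1.28 (SE 0.64, adjusted p = 1) and BNIP3 at 1.10 (SE 0.64, adjusted p = 1). The number of members at an unadjusted p under 0.05 was 17 with the mouse share as covariate (median 0.76), where 1128 of 18131 genes had one. It was 9 with voom (1135 of 18131 genes) and 10 without combination 3 (921 of 18496). It was 4 without the 4 libraries (median 0.31), where 1338 of 18408 genes had one. It was 2 with DESeq2 (696 of 18131), 1 with the replicate number as a block (544 of 18131) and 0 with RLE factors or total counts. None of these fits called a member, where 0 to 5 of all genes rose and 0 to 6 fell. The average phenelzine effect called none of the 36 and 0% of all genes, with a median of 0.07, which was -0.01 without the 4 libraries. No member was under an unadjusted 0.05 in it, where 399 of 18131 genes were. DESeq2 called none of the 36 in these 3 comparisons, where it called 0.0552%, 0.0607% and 0.0442% of all genes, and voom with quality weights called none of the 36 and 0% of all genes.

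The values of 1 group lay further apart in the mice given the taxane, a description with no test, and each group given it holds 2 of the libraries that stood apart. The median range of log2(CPM + 0.5) over the 36 genes was 0.58 in vehicle tumours, 0.59 with phenelzine, 1.17 with nab-paclitaxel and 1.19 with the combination. Over all genes tested it was 0.45, 0.47, 0.66 and 0.80. EPAS1 had the widest range in the combination group, at 3.07, HK2 in the nab-paclitaxel group, at 3.10, and LOX in the vehicle group, at 0.97. As a plain ratio of the highest to the lowest CPM, CA9 was widest with nab-paclitaxel, at 10.2, ahead of HK2 at 8.75.

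Within groups, 6 of the 36 genes moved with the mouse share of the library. Per 10 percentage points of mouse share, CA9 fell by 0.46 on the log2 scale, PFKFB3 by 0.35, PGAM1 by 0.24 and KDM3A by 0.18, where 4.13% of all genes fell. EPAS1 rose by 0.37 and HIF1A by 0.15, where 4.15% of all genes rose. The adjusted p-values ran from 0.0386 for PFKFB3 to 0.0479 for HIF1A, 31 of 36 slopes were negative and their median was -0.12. None of the 6 stayed called without the 4 libraries that stood apart, where 0 of all genes rose and 0 fell. Leaving out vehicle 3, any nab-paclitaxel library, phenelzine 1 or 2, or combination 1 or 4 also left none of the 36. Over all genes, calls were nearly absent in those fits too, as 1 to 3 rose and 0 to 1 fell. Without vehicle 4 there were 3 called genes (387 of all genes rose and 286 fell) and without phenelzine 3 also 3 (461 and 412). Without phenelzine 4 there were 2 (381 and 285), without combination 3 there were 4 (583 and 416) and without combination 2 there were 11 (1780 and 2295). ANGPTL4, the gene with the smallest p for the taxane, had a slope of -0.09 (SE 0.07, adjusted p = 0.415), and ENO2 and TPI1 had -0.11 (SE 0.06, adjusted p = 0.22) and -0.09 (SE 0.04, adjusted p = 0.166).

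**Figure D5:**
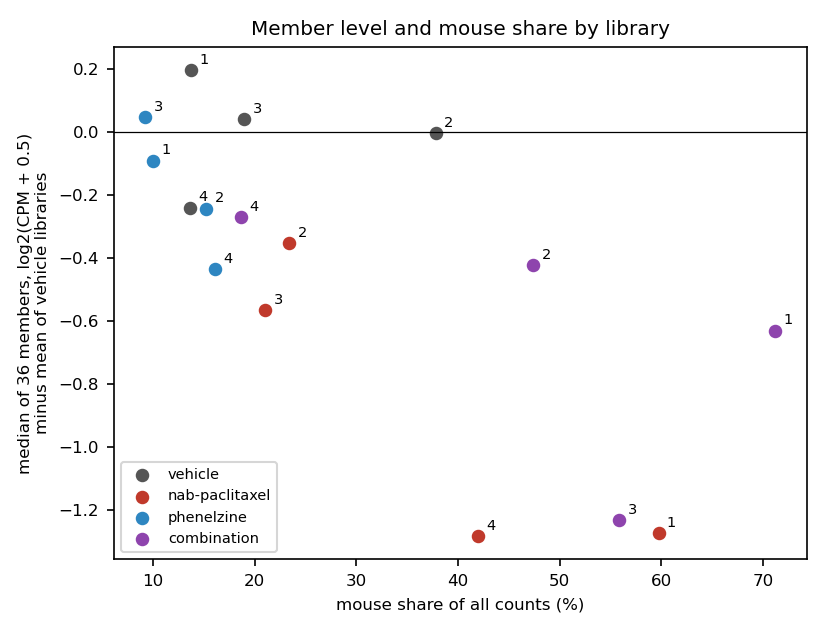
Median over the 36 genes of log2(CPM + 0.5) minus the mean of vehicle libraries (vertical axis) against the mouse share of all counts in percent (horizontal axis), 1 point a library, numbered by mouse and coloured by group. Within the nab-paclitaxel group the libraries with shares of 59.7% and 41.9% stand at -1.27 and -1.28 and those with 23.4% and 21.0% at -0.35 and -0.56. In the combination group the values are -0.27 at 18.6%, -0.42 at 47.4%, -1.23 at 55.9% and -0.63 at 71.2%, and vehicle 2 stands near 0 at 37.8%.

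Ratios between related genes were compared as descriptions. Within each library, log2 of ENO2 over ENO1 averaged -2.73 ± 0.21 in the 8 tumours without the taxane and -3.21 ± 0.25 in the 8 with it (SD). For ALDOC over ALDOA the means were -5.35 ± 0.26 and -6.10 ± 0.48, for SLC2A3 over SLC2A1 -1.74 ± 0.17 and -2.31 ± 0.41, and for BNIP3 over BNIP3L -0.08 ± 0.34 and -0.85 ± 0.61. The means ran the other way for P4HA2 over P4HA1, from -1.62 ± 0.19 to -0.74 ± 0.66, for PFKFB4 over PFKFB3, from -1.76 ± 0.23 to -1.45 ± 0.40, and for EPAS1 over HIF1A, from -3.40 ± 0.34 to -3.00 ± 0.66. The ranges of these 7 pairs overlapped between the 2 sets of 8, they were not tested, and gene length enters each ratio alike in every library.

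The 36 genes lie on 17 chromosomes, with 7 on chromosome 10 and 4 each on chromosomes 2 and 12. GAPDH (chr12:6534517-6538371), TPI1 (chr12:6867420-6870948) and ENO2 (chr12:6914580-6923697) lie within 389 kb of each other on chromosome 12. In the RefSeq annotation of GRCh38.p14, 15 of the 36 have pseudogenes named after them, with 65 for GAPDH, 46 for BNIP3 and 13 for PGAM1, and 16 are overlapped by another gene. How the authors' counting treated reads shared with such copies or with overlapping genes is not given in the sources used here, so the levels of these genes are less certain in this respect. Genes with neither are VEGFA, CA9, ADM, NDRG1, ANGPTL4, EPAS1, P4HA1, DDIT4, GPI, BNIP3L and ALDOC. How reads shared with the mouse orthologue were treated is not given either, and that doubt applies to all 36 genes.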

How the data were processed

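RNA of 16 tumours was sequenced as paired-end mRNA libraries. The authors deposited whole-number counts per Ensembl gene as separate human and mouse matrices, in which 0 columns of per-sample values were left unused. Per the submitters' processing notes, the builds hg38 and mm10 and the tools HISAT2 2.04, StringTie, Trimmomatic 0.36, Picard and edgeR were used, in roles that are not stated. How reads were divided between species, and whether strand was used, is not given in the sources used here. Only the mouse share was taken from the mouse matrix.

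Human counts were fitted with edgeR 4.0.16 (limma 3.58.1, R 4.3.3): TMM factors, filterByExpr with a minimum count of 10, a mean for each group with all 16 libraries in the model, which leaves 12 residual degrees of freedom, and its quasi-likelihood F test, Benjamini-Hochberg adjusted over 18131 genes with a threshold of 0.05. The SE of a log2 fold change was taken as its size over the root of F. Besides 5 comparisons of groups, the interaction and both average effects, the mouse share was fitted within groups, per 10 percentage points. The test was checked on simulated data. These held independent libraries, with none that stood apart and no mouse share, so the check does not cover those features of the tumours. Alternatives were RLE factors, total counts, no filter, DESeq2 1.42.0, voom with quality weights, only the groups compared, the mouse share as covariate, a replicate block, and leaving out each library or the 4 that stood apart.

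The 36 genes and all lists were chosen with earlier results of these data known. Symbols come with the list of genes; the files do not pair IDs with symbols and the reference table holds 0 Ensembl IDs, so further lists of hypoxia, glycolysis and oxygen-sensing genes and of cell type markers matched 0 IDs and were not tested, nor was the cell line checked against its markers. Positions come from RefSeq's GRCh38.p14 by symbol, for 36 of 36. Genes with values for every library are VEGFA, CA9, SLC2A1, LDHA, HIF1A and EPAS1 and, by rule, up to 16 called in at least 1 fit, taken as those called most often and then with the lowest adjusted p.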

Additional observations from a re-analysis of the deposited data

Results flagged for a closer look

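Among the 92 groups of 4 libraries examined, over the genes given library by library and the summary measures, 3 held 1 library whose gap to the nearest other, divided by the whole range of the group, was above Dixon's 95% critical value for 4 samples. Chance alone flags about 1 in 20 groups. CA9 in the vehicle group had 17.1 CPM in mouse 1, with a ratio of 0.841, against 8.97 to 10.2 in the other 3. SLC2A3 in the phenelzine group had 195 CPM in mouse 3, with a ratio of 0.887, against 143 to 149 in the others. GPI in the phenelzine group had 409 CPM in mouse 3, with a ratio of 0.859, against 325 to 337 in the others. The average nab-paclitaxel effect on these 3 genes kept its call without vehicle 1 and without phenelzine 3.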

How the results depend on the processing

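The count of the 36 genes called in the average nab-paclitaxel effect, 19 with all 16 libraries, was 20 with RLE factors, 23 with total counts, 18 without the filter, 26 with DESeq2 and 18 with voom. Over all genes, 2030 rose and 1101 fell with all 16 libraries, 2157 and 1039 with RLE factors and 2323 and 918 with total counts. These were 1675 and 655 without the filter, 2814 and 1624 with DESeq2 and 1327 and 963 with voom. With the mouse share as covariate the count of the 36 was 0 (29 of all genes rose and 5 fell), and without the 4 libraries that stood apart 4 (193 and 112). It was 13 to 27 when each library was left out in turn, where 1293 to 3066 of all genes rose and 553 to 1843 fell. For nab-paclitaxel against vehicle, 1 call (20 of all genes rose and 10 fell) became 2 with total counts (25 and 13) and 2 without the filter (67 and 22). It became 19 with DESeq2 (1022 and 419) and 17 with voom (335 and 264). It became 0 with only the groups compared (18 and 9) and 0 without the 4 libraries (20 and 6). With 1 library left out there were 0 to 18 calls, where 0 to 499 of all genes rose and 0 to 204 fell. For the combination against vehicle, 1 call (97 of all genes rose and 36 fell) became 10 with DESeq2 (1170 and 404). With 1 library left out there were 0 to 2, where 0 to 1112 of all genes rose and 1 to 276 fell. The call became 0 with only the groups compared (0 of all genes rose and 0 fell), with the mouse share (1 and 1) or without the 4 libraries (9 and 12). Against phenelzine, 1 call (299 of all genes rose and 113 fell) became 8 with DESeq2 (1274 and 558) and 0 in those same 3 fits. In these, in the same order, 0, 3 and 28 of all genes rose and 1, 1 and 18 fell. With 1 library left out there were 0 to 3, where 5 to 1159 of all genes rose and 1 to 328 fell. For the slope on mouse share, 6 calls (753 of all genes rose and 748 fell) became 12 with DESeq2 (1974 and 1756). They became 20 with voom (2670 and 2761) and 0 without the 4 libraries (0 and 0). With 1 library left out there were 0 to 11, where 1 to 1780 of all genes rose and 0 to 2295 fell. The other 4 comparisons called 0 of the 36 in every fit, where 0 to 5 of all genes rose and 0 to 6 fell. Of the 36 values of the average nab-paclitaxel effect and the 6 called slopes, those that changed sign in these 2 fits were HIF1A (-0.040 with the mouse share, -0.0127 without the 4 libraries), EPAS1 (-0.152 and -0.063), P4HA2 (-0.140 and -0.118), BNIP3L (0.083 and 0.091) and PKM (0.056 with the mouse share) in the average nab-paclitaxel effect, and HIF1A (-0.0119) and PGAM1 (0.0029) in the slope without the 4 libraries. Over all 36 genes, the combination against phenelzine changed sign for 20 with the mouse share as covariate and 10 without the 4 libraries, the combination against vehicle for 6 and 5, nab-paclitaxel against vehicle for 3 and 3, and phenelzine against vehicle for 8 and 0, while 10 of all 36 slopes did so without the 4 libraries. The causes were not tested. Depth limits CA9 most, with a lowest raw count of 6.

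Replicate numbers were not taken as pairs of mice in the main fit, and the sample labels do not say whether they are. Deviations of same-numbered libraries correlated over 0.1 in 4 of 24 pairs, from -0.43 to 0.57. Their median was -0.008, against 0.011 for libraries of other numbers, and 6 of 16 libraries were closest to their own number. These values do not settle whether the mice were paired. With the replicate number as a block, 19 of the 36 were called in the average nab-paclitaxel effect, where 1685 of all genes rose and 1149 fell. Nab-paclitaxel against vehicle called 0 of the 36 in that fit, where 0 of all genes rose and 0 fell. The combination against vehicle also called 0 of the 36, where 8 of all genes rose and 2 fell. Calls over all genes were thus absent or few in both comparisons. For the combination against phenelzine the 1 call was CA12, which rose, where 71 of all genes rose and 26 fell. ANGPTL4 was no longer called. In the slope 13 fell and 0 rose, where 1009 of all genes fell and 704 rose, so HIF1A and EPAS1 were no longer called.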
